A study of Mus musculus with 12 samples.

Results

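The genes that encode the MHC class II antigen presentation machinery were followed across 4 groups of sorted mouse bone marrow cells. They were H2-Aa, H2-Ab1 and H2-Eb1 (chains of the classical class II molecules), Cd74 (the invariant chain), H2-DMa, H2-DMb1 and H2-DMb2 (chains of the peptide editor H2-DM), H2-Oa and H2-Ob (chains of H2-O) and Ciita (the class II transactivator). Members were the entries of the count table whose deposited symbol, written in capitals (H2-AA, H2-AB1, H2-EB1, CD74, CIITA and so on), was one of these 10 names, which gave 11 of 21497 entries because CIITA was listed under 2 identifiers. All 11 passed the filter on low counts, as did 16042 entries in all. Cells came from C57BL/6 mice with a donor age of 0.35 years. The mice were either WT or Tet2-/-Flt3ITD, written T2F3 below, which lack the DNA demethylase gene Tet2 and carry an internal tandem duplication of the receptor kinase gene Flt3. From each genotype, LSK cells (a lineage-negative, c-Kit+ fraction rich in stem and multipotent progenitor cells) and GMP (granulocyte-macrophage progenitors) were sorted, and each of the 4 groups had 3 RNA-seq libraries. The labels do not say which part of Tet2 is deleted, in which cells, or how many animals went into a library, and p-values therefore measure only the spread between these libraries, which may be technical.

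Classical class II molecules are pairs of an alpha and a beta chain that show peptides from endocytosed proteins to CD4 T cells. The invariant chain escorts them to the endosome and blocks their groove, H2-DM then exchanges its remnant for peptide, and H2-O restrains H2-DM. Ciita does not bind DNA itself. It is recruited to class II promoters by factors on short elements called the X and Y boxes, and dendritic cells and B cells are the marrow cells best known for high class II expression.

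Promoter sequences from RefSeq (GRCm38.p6) were found for 7 of the 10 genes: H2-Aa, H2-Eb1, H2-DMa, H2-DMb1, H2-DMb2, H2-Oa and H2-Ob. The stretches below are shown because their letters match elements known from class II promoters (H2-Aa has no X box match marked), and they let the genes that moved with genotype (H2-Aa, H2-Eb1) be read beside those that did not pass the test. They lie on chromosome 17, upstream of the annotated start and on the strand of the gene. In capitals are the Y box core (ATTGG, the reverse complement of CCAAT) and, where present, an X box tail (AAC, any 2 bases, then ATGATG) or, for H2-Oa, an X box core (CNNAGNNAC).
H2-Eb1, chr17:34305766-34305824, plus strand: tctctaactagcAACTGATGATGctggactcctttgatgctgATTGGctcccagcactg
H2-Aa, chr17:34287855-34287918, minus strand: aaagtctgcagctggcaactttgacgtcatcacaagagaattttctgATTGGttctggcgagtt
H2-DMb2, chr17:34145116-34145175, plus strand: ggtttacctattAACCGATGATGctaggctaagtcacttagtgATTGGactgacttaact
H2-DMb1, chr17:34153087-34153146, plus strand: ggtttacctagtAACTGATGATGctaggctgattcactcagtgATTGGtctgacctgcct
H2-Ob, chr17:34238808-34238864, plus strand: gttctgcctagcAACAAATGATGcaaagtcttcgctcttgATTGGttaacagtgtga
H2-Oa, chr17:34092287-34092352, plus strand: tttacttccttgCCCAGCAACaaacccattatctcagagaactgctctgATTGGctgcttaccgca

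Both strands of windows from 250 bases before to 50 bases after the start were searched. H2-DMa had a further window with 0 matches to any of the motifs, so members are counted by gene and the percentages by window. The Y box core was in all 7 members, against 37.4% of 32851 windows. The X box core was in 6 members, against 48.9% of windows, and it was followed by a Y box core 15 to 35 bases further on in 3 members, against 1.17% of windows. The X box tail, a motif chosen after these sequences were read, was in 4 members (H2-Eb1, H2-DMb1, H2-DMb2 and H2-Ob) against 0.137% of windows, with 17 to 20 bases to the Y box core. H2-DMb1 and H2-DMb2 are near copies in this stretch. The same pair of motifs thus stood before a gene that rose with genotype in both populations, H2-Eb1, and before H2-Ob, which did not pass the genotype test in either. A match describes letters in a window and no binding.

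Library depth was 13316474 to 23536258 counts. Values are CPM (counts scaled to library size) after TMM scaling, and a count of 0 allows up to 0.1115 to 0.228 CPM. Whole-gene Tet2 counts were 78.96 to 88.95 CPM (WT LSK) versus 40.9 to 89.1 CPM (T2F3 LSK), and 107 to 138 CPM in WT GMP and 66.2 to 96.35 CPM in T2F3 GMP. Tet2 passed no genotype test, and T2F3 LSK replicate 2, at 89.1 CPM, was as high as WT. The protocol describes both gates as Sca-1 negative, yet Ly6a, which encodes Sca-1, was at 11.3 to 46.6 CPM in the 6 LSK libraries and at 1.52 to 6.46 CPM in the 6 GMP libraries. Of the 12 libraries, 2 stood apart in ways that touch class II. T2F3 LSK replicate 3 was far below the other T2F3 LSK libraries for every classical chain, and WT LSK replicate 1 had the highest B cell marker level (Ighm, picked out after its values were seen, at 2450 CPM against 132 to 470.3 CPM elsewhere). Their own values are printed beside the results they touch.

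In T2F3 cells the classical chains, the invariant chain and the transactivator rose together in both LSK and GMP, by 16.8-fold to 64-fold. The H2-DM and H2-O chains differed by less and did not pass the test, although H2-DMb2 passed with DESeq2. In LSK, 5 of the 10 genes passed at an adjusted p under 0.05, all higher in T2F3, against 5.2% of all genes tested (2.76% higher and 2.44% lower). In GMP the same 5 passed, all higher, against 1.14% of all genes tested (0.679% higher and 0.461% lower). The 3 T2F3 libraries lay wholly above the 3 WT libraries for 4 of the 10 genes in LSK (14.7% of all genes) and for 7 of the 10 in GMP (12% of all genes). They lay wholly below for 0 of the 10, against 13.3% of all genes in LSK and 9.72% in GMP.

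**Figure D1:**
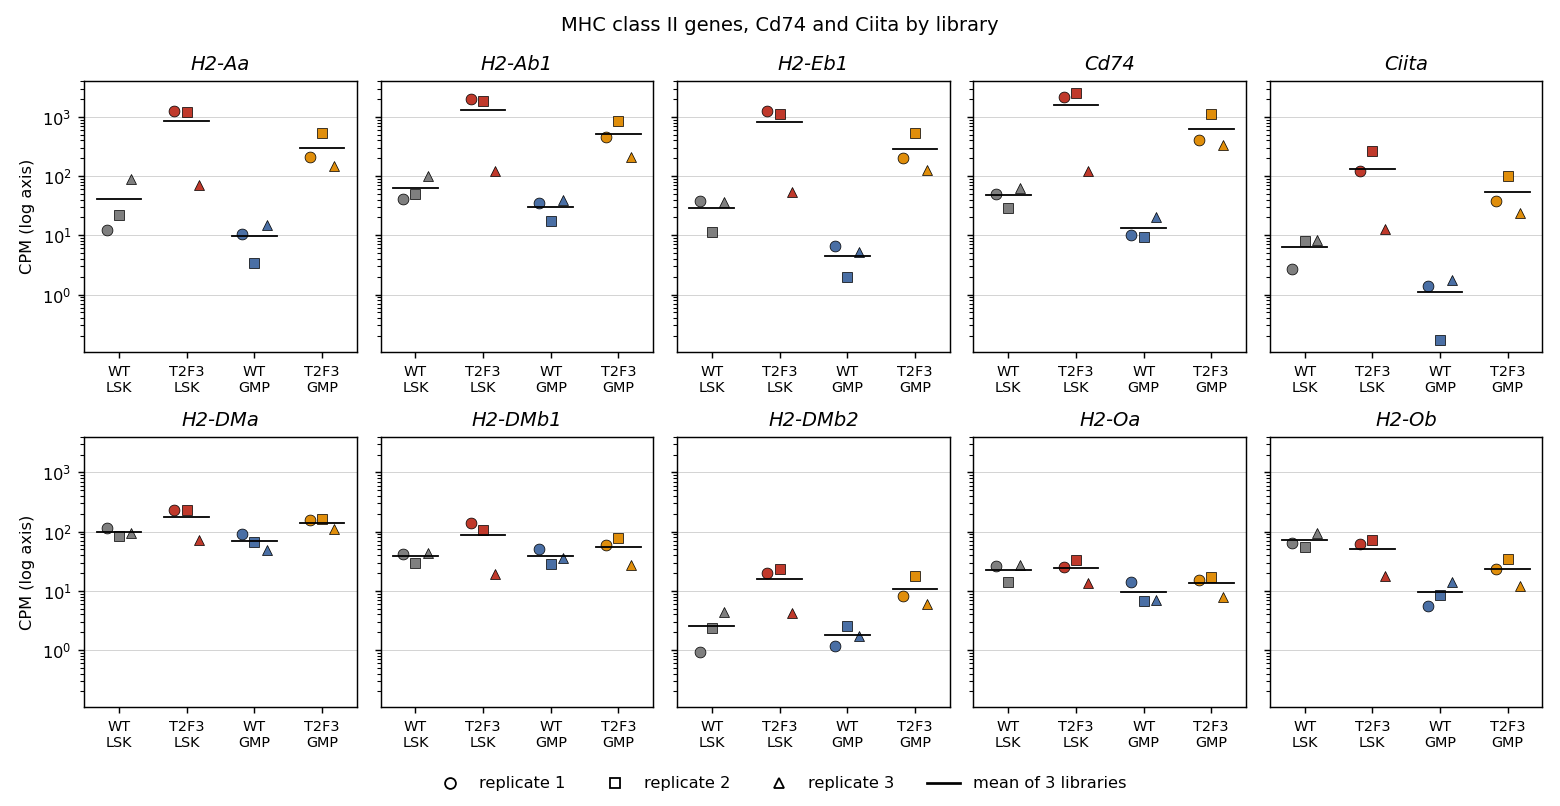
CPM of each of the 10 genes (log axis) in the 12 libraries, by group; symbols are replicates 1 to 3 and lines are means of 3 libraries. H2-Aa, H2-Ab1, H2-Eb1, Cd74 and Ciita are high in T2F3 LSK replicates 1 and 2 and in all T2F3 GMP libraries, while T2F3 LSK replicate 3 (Cd74 at 124 CPM) sits near the WT libraries.

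Cd74 encodes the chaperone of newly made class II molecules. It stood at 50.5, 29.2 and 61.7 CPM in WT LSK replicates 1, 2 and 3 and at 2134, 2497 and 124 CPM in the T2F3 replicates. In GMP it was at 10.0, 9.33 and 20.4 CPM (WT) versus 399.7, 1123 and 333.5 CPM (T2F3). The genotypes did not overlap in either population, although T2F3 LSK replicate 3 lay much closer to the WT libraries than to the other T2F3 libraries. Cd74 rose by 5.07 ± 0.91 on the log2 scale in LSK (SE, n = 3 per group, 33.6-fold, adjusted p = 0.0103) and by 5.55 ± 0.94 in GMP (46.8-fold, adjusted p = 0.0153). These are bulk samples, so more cells that hold a transcript and more transcript in each cell cannot be told apart.

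H2-Ab1 encodes the beta chain of the I-A molecule. Its WT LSK libraries held 40.9, 49.3 and 100.5 CPM and its T2F3 LSK libraries 1973, 1861 and 122 CPM, with the third T2F3 library only just above the highest WT library. The WT GMP libraries held 34.98, 17.3 and 39.1 CPM and the T2F3 GMP libraries 456.0, 862 and 214 CPM, well apart. The rise was 4.37 ± 0.87 on the log2 scale in LSK (20.7-fold, adjusted p = 0.0156) and 4.07 ± 0.86 in GMP (16.8-fold, adjusted p = 0.0418).

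H2-Aa encodes the alpha chain that pairs with it. It was at 12.5, 22.01 and 88.4 CPM (WT LSK) versus 1238, 1208 and 71.4 CPM (T2F3 LSK). The genotypes overlapped there, because T2F3 replicate 3 fell below WT replicate 3. GMP held 10.7, 3.38 and 15.01 CPM (WT) versus 209, 525 and 149 CPM (T2F3), with no overlap. The rise was 4.36 ± 1.0 on the log2 scale in LSK (20.5-fold, adjusted p = 0.0317) and 4.93 ± 1.1 in GMP (30.5-fold, adjusted p = 0.0462).

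H2-Eb1, the beta chain of the I-E molecule, was at 37.4, 11.5 and 36.7 CPM (WT LSK) versus 1237, 1128 and 53.4 CPM (T2F3 LSK). GMP levels were 6.50, 1.95 and 5.18 CPM (WT) versus 202, 536.0 and 127.5 CPM (T2F3), with no overlap in either population. It rose by 4.82 ± 0.99 on the log2 scale in LSK (28.3-fold, adjusted p = 0.0183) and by 6.00 ± 1.1 in GMP (64-fold, adjusted p = 0.0186). No entry named H2-Ea, the alpha chain gene of I-E, was among the counts, so these values do not show that an I-E molecule was made.

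Ciita, the coactivator on which class II transcription depends, was scarce in WT. It was at 2.70, 7.90 and 8.28 CPM (WT LSK) versus 123, 266 and 12.9 CPM (T2F3 LSK), and the groups did not overlap. Among GMP libraries it was at 1.37, 0.174 and 1.75 CPM in WT (4 counts in replicate 2) and at 37.9, 99.2 and 23.6 CPM in T2F3. Ciita rose by 4.41 ± 0.98 on the log2 scale in LSK (21.3-fold, adjusted p = 0.0252) and by 5.65 ± 1.1 in GMP (50.2-fold, adjusted p = 0.0264). In each T2F3 group, the library with the most Ciita, replicate 2, also had the most Cd74. H2-Aa, H2-Ab1 and H2-Eb1 were highest in that replicate in T2F3 GMP only. In T2F3 LSK they were highest in replicate 1 (1238, 1973 and 1237 CPM, against 1208, 1861 and 1128 CPM in replicate 2).

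The calls and the sizes depended on which libraries were in the fit, while the direction of these 5 genes did not change. With 1 library left out, the log2 rise in LSK ranged over 3.93 to 5.58 for H2-Aa, 3.97 to 4.92 for H2-Ab1, 4.38 to 5.38 for H2-Eb1, 4.58 to 5.62 for Cd74 and 3.43 to 4.95 for Ciita. The fold moved by more than 1.5 times without WT LSK replicate 3 for H2-Aa (5.58 in place of 4.36) and without T2F3 LSK replicate 2 for Ciita (3.43 in place of 4.41). In GMP, leaving out T2F3 GMP replicate 2 lowered the fold of all 5 by more than 1.5 times, to log2 values of 4.21 for H2-Aa, 3.46 for H2-Ab1, 5.19 for H2-Eb1, 4.79 for Cd74 and 4.84 for Ciita. Without T2F3 LSK replicate 3, 8 of the 10 genes passed in LSK: H2-DMa (adjusted p = 0.0262), H2-DMb1 (0.0356) and H2-DMb2 (0.0295) joined the 5. Without WT LSK replicate 1 or 2 or T2F3 LSK replicate 1, only Cd74 passed, and without WT LSK replicate 3 or T2F3 LSK replicate 2, 3 genes passed. Cd74 kept its LSK call without any 1 of the 12 libraries. The LSK calls were lost at adjusted p of 0.0736 to 0.11 for H2-Aa, 0.0572 to 0.0685 for H2-Ab1, 0.0517 to 0.0724 for H2-Eb1 and 0.0614 to 0.0902 for Ciita. In GMP no gene passed without WT GMP replicate 1 or 2, 1 passed without WT GMP replicate 3 or T2F3 GMP replicate 2, and 2 passed without T2F3 GMP replicate 1. GMP counts were 3 without WT LSK replicate 2 or T2F3 LSK replicate 1 or 2, which enter that test only through the shared estimate of spread. The highest adjusted p among these GMP tests was 0.082 for Cd74, 0.0923 for H2-Eb1, 0.112 for Ciita, 0.167 for H2-Ab1 and 0.172 for H2-Aa.

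Library codes in the labels (4 codes, meaning not stated) were shared by few libraries of opposite genotype, so values within a code are single pairs with no replicate. In the code that held WT LSK replicate 1 and T2F3 LSK replicate 2, T2F3 was 49.4 times WT for Cd74, 98.3 times for Ciita, 96.4 times for H2-Aa, 45.5 times for H2-Ab1 and 30.2 times for H2-Eb1. In the 2 codes with GMP pairs, T2F3 was 33.3 and 19.6 times WT for Cd74, 17.2 and 21.7 times for Ciita, 19.6 and 39.1 times for H2-Eb1, 13.9 and 13.9 times for H2-Aa and 6.11 and 11.7 times for H2-Ab1. The classical genes were thus higher in T2F3 within each code that allowed the comparison. With the code as a block in the fit, none of the 10 genes passed in LSK (5 at an unadjusted p under 0.05) or in GMP (6 at an unadjusted p under 0.05), and Cd74 had an adjusted p of up to 0.112 in LSK over all alternatives tried. The same block ended every LSK call of the pathway and marker lists described further on, with adjusted p from 0.0514 (Xcr1) to 0.267 (Cd68) for the genes named there, whereas the GMP calls of Gbp7 and Gcsam held.

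The H2-DM chains were already expressed in WT progenitors and differed less. H2-DMa, the alpha chain, was at 113, 82.9 and 96.4 CPM (WT LSK) versus 228, 235 and 73.5 CPM (T2F3 LSK), where replicate 3 was the lowest of all 6. GMP libraries stood at 90.4, 66.2 and 48.2 CPM (WT) versus 154, 161 and 112 CPM (T2F3), with no overlap. Its log2 differences were 0.87 ± 0.37 in LSK (adjusted p = 0.194) and 1.06 ± 0.37 in GMP (adjusted p = 0.212).

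Of the 2 beta chains, H2-DMb1 was the more abundant per exon length. It was at 41.5, 29.1 and 43.6 CPM (WT LSK) versus 141, 106 and 19.1 CPM (T2F3 LSK), and at 51.1, 28.0 and 35.8 CPM (WT GMP) versus 60.2, 77.8 and 27.0 CPM (T2F3 GMP). The genotypes overlapped in both populations (log2 differences 1.22 ± 0.56 and 0.52 ± 0.55, adjusted p = 0.23 and 0.772). H2-DMb2 was low, at 0.923, 2.35 and 4.44 CPM (WT LSK) versus 19.8, 23.1 and 4.16 CPM (T2F3 LSK), and at 1.19, 2.52 and 1.75 CPM (WT GMP) versus 8.30, 17.6 and 6.11 CPM (T2F3 GMP). Its log2 differences of 2.61 ± 0.74 in LSK (adjusted p = 0.0602) and 2.54 ± 0.73 in GMP (adjusted p = 0.13) were larger than those of its partners and did not pass, although the GMP groups did not overlap. With DESeq2 in place of edgeR, H2-DMb2 passed in LSK (adjusted p = 0.0044) and in GMP (adjusted p = 0.0089). The 2 beta chain genes are similar in sequence, so the split of reads between them is uncertain.

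The H2-O chains, inhibitors of H2-DM, showed no call by genotype. H2-Oa was at 26.1, 14.3 and 26.9 CPM (WT LSK) versus 25.6, 33.1 and 13.6 CPM (T2F3 LSK), and at 14.4, 6.85 and 7.09 CPM (WT GMP) versus 15.1, 17.4 and 7.78 CPM (T2F3 GMP). Both pairs of groups overlapped (log2 differences 0.10 ± 0.44 and 0.51 ± 0.45, adjusted p = 0.928 and 0.704). H2-Ob was at 63.8, 54.5 and 96.0 CPM (WT LSK) versus 62.6, 72.2 and 17.7 CPM (T2F3 LSK), and at 5.48, 8.503 and 14.4 CPM (WT GMP) versus 23.2, 34.1 and 12.0 CPM (T2F3 GMP). Its log2 difference was -0.49 ± 0.51 in LSK (adjusted p = 0.636) and 1.29 ± 0.52 in GMP (adjusted p = 0.288), the only member with opposite signs in the 2 populations.

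**Figure D2:**
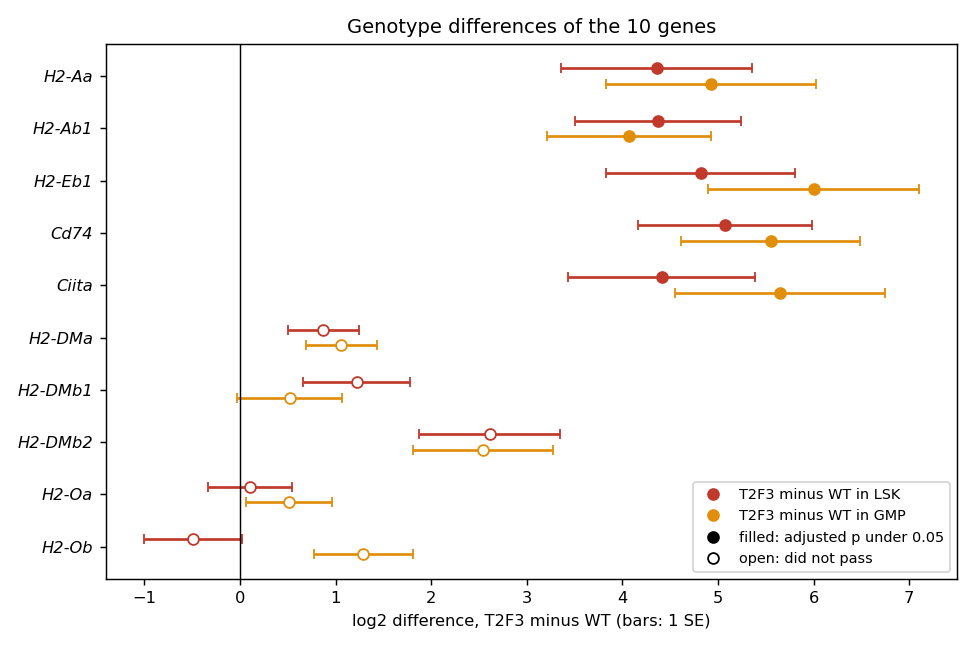
Log2 difference of T2F3 minus WT (x axis, bars 1 SE, n = 3 libraries per group) for each of the 10 genes in LSK and in GMP, with filled points where the adjusted p was under 0.05. The 3 classical chains, Cd74 and Ciita lie between 4.07 and 6.00, and the H2-DM and H2-O chains between -0.49 and 2.61.

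Whether the genotype difference itself differed between LSK and GMP was tested directly. None of the 10 genes passed, against 0.0249% of all genes tested, and 1 had an unadjusted p under 0.05. That gene was H2-Ob, whose LSK effect minus GMP effect was -1.78 ± 0.73 on the log2 scale (edgeR quasi-likelihood adjusted p = 0.488). For Cd74 the difference between the populations was -0.48 ± 1.1 and for Ciita -1.24 ± 1.3 (adjusted p = 0.933 and 0.818), so errors of this size leave room for a moderate difference either way.

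In WT mice, 1 of the 10 genes passed between the populations: H2-Ob was lower in GMP, with a log2 difference of -2.92 ± 0.55 (7.55-fold lower, adjusted p = 0.00437), against 13.1% of all genes tested (7.37% lower and 5.72% higher). It passed under every one of the 25 alternatives. H2-Ab1, H2-Eb1, Cd74, Ciita and H2-Ob, 5 of the 10, were lower in every WT GMP library than in every WT LSK library, against 16.3% of all genes (15.2% were higher). Differences for H2-Eb1 (-2.66 ± 0.93, adjusted p = 0.0761), Ciita (-2.56 ± 1.0, adjusted p = 0.111), Cd74 (-1.83 ± 0.80, adjusted p = 0.152) and H2-Oa (-1.25 ± 0.45, adjusted p = 0.0866) did not pass. With LSK and GMP libraries that share a title number within a genotype paired as a block, 3 genes passed, with H2-Eb1 (adjusted p = 0.0258) and H2-Oa (adjusted p = 0.0263) joining H2-Ob. Without T2F3 LSK replicate 3, which here only feeds the estimate of spread, 4 passed: H2-Eb1 (adjusted p = 0.0157), Cd74 (0.0304), Ciita (0.0448) and H2-Ob. Without WT GMP replicate 1, 2 passed, with H2-Oa at 0.0491.

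Within such pairs, which the labels do not say are single mice, the WT ratio of LSK to GMP was 5.05, 3.13 and 3.03 for Cd74, 5.76, 5.88 and 7.08 for H2-Eb1 and 11.6, 6.41 and 6.69 for H2-Ob. All 3 WT pairs were higher in LSK for 8 of the 10 genes, the exceptions being H2-DMb1 and H2-DMb2. The share of all genes higher in LSK in every WT pair is not given, so that count only describes the members. In T2F3 the ratio for Cd74 was 5.34 and 2.22 in pairs 1 and 2 and 0.372 in pair 3. Pair 3 was below 1 for every gene except H2-Oa (1.75) and H2-Ob (1.47), so its GMP library held more class II transcript than its LSK library. Between T2F3 GMP and T2F3 LSK none of the 10 genes passed, against 0.972% of all genes tested (0.698% lower, 0.274% higher), and H2-Ob alone had an unadjusted p under 0.05. None separated the groups fully, against 8.97% of all genes that were lower in every GMP library and 6.35% that were higher.

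Ordered by mean level, 7 of the 10 genes ran from T2F3 LSK through T2F3 GMP and WT LSK to WT GMP. The step from T2F3 GMP to WT LSK was free of overlap for H2-Aa, H2-Ab1, H2-Eb1, Cd74, H2-DMb2 and Ciita, and not for H2-DMa. The share of all genes with this order or this gap is not given, so these counts only describe the members. T2F3 LSK and T2F3 GMP overlapped for every gene. H2-Ob had another order, with WT LSK first and T2F3 LSK next, and these overlapped.

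Levels of different genes can be compared only per length of exon. The lengths merged all exons of each gene in GENCODE vM21, from 1407 bases (H2-Oa) to 9535 bases (Ciita). The submitters' notes name the mm9 build, so these may not be the exons that were counted. Ranks, shares and ratios between genes depend on these lengths. Per kilobase, H2-DMa (28.3 ± 4.43 CPM per kb), Cd74 (28.1 ± 9.83) and H2-Ab1 (24.8 ± 12.6) were the highest of the 10 in WT LSK, within their spread of each other (SD, n = 3). In T2F3 LSK, Cd74 reached 944 ± 761 and H2-Ab1 514 ± 404 CPM per kb, while H2-DMa was at 51.9 ± 26.5. Without T2F3 LSK replicate 3 these means were 1379 for Cd74, 746.5 for H2-Ab1 and 67.1 for H2-DMa. In WT GMP, H2-DMb1 (22.8 ± 6.99) and H2-DMa (19.8 ± 6.14) led, with Cd74 at 7.88 ± 3.68. In T2F3 GMP, Cd74 led at 368 ± 261.

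The make-up of the family differed by genotype. The classical chains and Cd74 made up 43.6, 43.1 and 55.6% of the 10 genes' summed CPM per kb in WT LSK and 93.6, 93.7 and 77.3% in T2F3 LSK. In GMP they made up 27.3, 24.5 and 43.5% in WT and 84.6, 91.5 and 86.1% in T2F3. The T2F3 libraries were above all WT libraries in both populations, and this held for T2F3 LSK replicate 3 too. The H2-DM chains had a mean share of 33.9% (WT LSK), 57.2% (WT GMP) and 10.3% (T2F3 GMP). In T2F3 LSK their share was 5.04, 4.35 and 16.2% (mean 8.51%, and 4.69% without replicate 3). The H2-O chains had mean shares of 18.3% (WT LSK), 11% (WT GMP) and 1.72% (T2F3 GMP). In T2F3 LSK it was 0.93, 1.11 and 5.96% (mean 2.67%, and 1.02% without replicate 3), so replicate 3 carried most of both T2F3 LSK means. These shares were not tested, and neither set had a call on its own level.

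**Figure D3:**
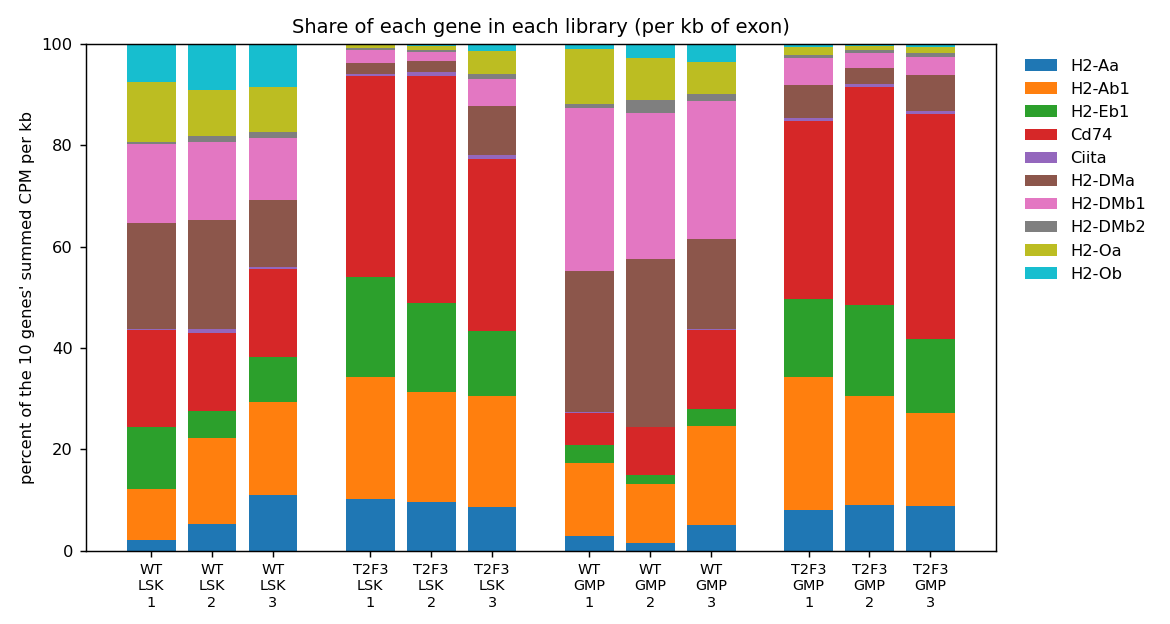
Share of each of the 10 genes in their summed CPM per kb of exon (y axis, percent) in each of the 12 libraries. H2-Aa, H2-Ab1, H2-Eb1 and Cd74 together take 24.5 to 55.6% in WT libraries and 77.3 to 93.7% in T2F3 libraries.

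Ratios between members within a library differed by genotype for some pairs only. The log2 ratio per kb of H2-DM to its inhibitor H2-O was 0.93, 1.07 and 0.61 in WT LSK and 2.44, 1.97 and 1.44 in T2F3 LSK, with no overlap. In GMP it was 2.37 ± 0.15 in WT and 2.57 ± 0.15 in T2F3 (SD, n = 3), and those ranges overlapped. The log2 ratio of H2-Eb1 to H2-Ab1, the 2 beta chains, was -2.43 ± 0.37 in WT GMP and -0.47 ± 0.27 in T2F3 GMP, with no overlap. In LSK that ratio was -0.83 ± 1.01 (WT) and -0.46 ± 0.29 (T2F3), and the groups overlapped. H2-Aa stood to its partner H2-Ab1 at -1.58 ± 0.77 (WT LSK) and -1.25 ± 0.08 (T2F3 LSK), which overlapped, and at -2.38 ± 0.49 (WT GMP) and -1.35 ± 0.31 (T2F3 GMP), which did not. Ciita stood to H2-Ab1 at -5.28 ± 0.66 (WT LSK), -5.24 ± 0.61 (T2F3 LSK), -7.16 ± 1.19 (WT GMP) and -5.19 ± 0.26 (T2F3 GMP), overlapping in LSK. These ratios are descriptions and were not tested.

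The factors that sit on class II promoters had no call. Of 7 promoter factors (the RFX subunits, the NF-Y subunits and Creb1), 0 passed in LSK and 0 in GMP, with median log2 differences of -0.05 and -0.09 against 0.051 and 0.018 over all genes. Rfx5, the large RFX subunit that binds the X box, was at 35.9, 52.0 and 36.9 CPM (WT LSK) versus 20.1, 42.7 and 33.3 CPM (T2F3 LSK), log2 difference -0.38 ± 0.29, adjusted p = 0.506. The summed level of the 7 ranged over 337.9 to 397.5 CPM (WT LSK) versus 314 to 370.4 CPM (T2F3 LSK), which overlap. In GMP Rfx5 differed by -0.09 ± 0.29 (adjusted p = 0.947), a sign that flips with scaling to total counts (0.10).

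Among 12 upstream regulators, 1 passed in LSK, Irf8, and 0 in GMP, with median log2 differences of 0.39 and 0.72. Irf8, a transcription factor required by dendritic cell and monocyte precursors, was at 221, 108 and 198 CPM (WT LSK) versus 920.3, 1320 and 152 CPM (T2F3 LSK). The groups overlapped through T2F3 replicate 3, and the rise was 2.18 ± 0.56 on the log2 scale (4.54-fold, adjusted p = 0.0446). The call was lost (adjusted p 0.0542 to 0.139) without any 1 library other than T2F3 LSK replicate 3 or WT GMP replicate 1. Without either of those 2 the LSK count was 2, and without T2F3 LSK replicate 3 the GMP count was 1. In GMP the difference was 1.23 ± 0.55 (adjusted p = 0.347). Spi1, the myeloid factor PU.1, differed by 0.62 ± 0.28 in LSK and -0.53 ± 0.28 in GMP (adjusted p = 0.219 and 0.442). Irf4 was below 12 CPM everywhere and differed by 2.80 ± 1.3 and 4.25 ± 1.4 (adjusted p = 0.241 and 0.195).

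Of 11 genes for class II processing and turnover, 3 rose in LSK and 0 passed in GMP (median log2 differences 0.75 and 0.57). Ifi30, the lysosomal thiol reductase that unfolds antigens, was at 7.58, 4.59 and 4.07 CPM (WT LSK) versus 72.5, 73.9 and 23.7 CPM (T2F3 LSK), with no overlap (10.5-fold, adjusted p = 0.0026). Its call held without any 1 library and was lost with the library code as a block (adjusted p = 0.0543). Marchf1, a ubiquitin ligase that removes class II from the surface of resting dendritic and B cells, was at 0, 0.112 and 0.444 CPM (WT LSK) versus 31.6, 46.6 and 3.54 CPM (T2F3 LSK), 149-fold, adjusted p = 0.0112, and 0.0526 without WT LSK replicate 2. Ctsh, a lysosomal cathepsin, was at 1.25, 4.54 and 5.62 CPM against 32.7, 37.0 and 3.75 CPM (6.42-fold, adjusted p = 0.0465). Ctsh overlapped between genotypes, and its call was lost without the same libraries as that of Irf8 (adjusted p 0.0554 to 0.143). Without WT LSK replicate 2 the count fell to 1, Ifi30. Without T2F3 LSK replicate 3, 2 of these genes passed in GMP, Ifi30 (0.0402) and Marchf1 (0.033).

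Class II can be induced by interferon gamma, so its receptor and other targets were counted too. Of 14 such genes tested, 4 rose in LSK and 1 in GMP (median log2 differences 0.56 and 1.02). Gbp7, a guanylate-binding protein, was at 37.6, 48.3 and 41.0 CPM (WT LSK) versus 104.5, 154 and 124 CPM (T2F3 LSK), 3.01-fold, adjusted p = 0.00507, and at 30.3, 29.9 and 35.7 CPM (WT GMP) versus 101.5, 200.2 and 174.5 CPM (T2F3 GMP), 4.97-fold, adjusted p = 0.00103. In both populations replicate 3 of T2F3 lay between the others for Gbp7, unlike for class II, and the Gbp7 calls held without any 1 library, although the block for the library code ended the LSK call (adjusted p = 0.0896). Igtp, an interferon-induced GTPase, was likewise even across T2F3 LSK at 88.2, 78.1 and 80.2 CPM, against 26.5, 24.8 and 29.1 CPM in WT (3.06-fold, adjusted p = 0.029).

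Gbp3, a further guanylate-binding protein, rose 3.92-fold in LSK (adjusted p = 0.0181). It was at 5.08, 12.3 and 14.6 CPM (WT LSK) versus 55, 44.8 and 25.7 CPM (T2F3 LSK). The chemokine gene Cxcl9 rose from 0.132, 0.112 and 0.0739 CPM to 4.48, 7.43 and 0.782 CPM (adjusted p = 0.0263), and no fold is given because each WT value is under 3 counts. Without WT LSK replicates 1, 2 or 3 the count of 4 was 2, 1 and 2, and without T2F3 LSK replicates 1 or 2 it was 1 and 2. Igtp lost its call without any 1 LSK library (adjusted p 0.0558 to 0.0985). Cxcl9 lost it without any LSK library but T2F3 replicate 3 (0.0727 to 0.0897), and Gbp3 without WT replicate 2 (0.0544) or T2F3 replicate 1 (0.0774). In GMP the count was 2 without WT GMP replicate 3, with Igtp at 0.00581. T2F3 LSK replicate 3 was the lowest T2F3 LSK library for Gbp3 and Cxcl9, as for class II, and not for Gbp7 or Igtp. The part of interferon gamma in the class II result was not tested.

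Of 6 costimulatory ligands and regulators, which antigen-presenting cells show beside class II, 0 passed in LSK or GMP, although their median log2 differences were 2.09 and 3.20. They were scarce, at a summed 57.1 to 68.9 CPM (WT LSK) versus 56.1 to 130.6 CPM (T2F3 LSK). Without T2F3 LSK replicate 3, 1 passed in LSK. Of 4 genes tested that lie among the class II genes on the chromosome (Brd2 and genes of class I antigen processing), 0 passed in either population, with medians of -0.09 and -0.15.

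**Figure D4:**
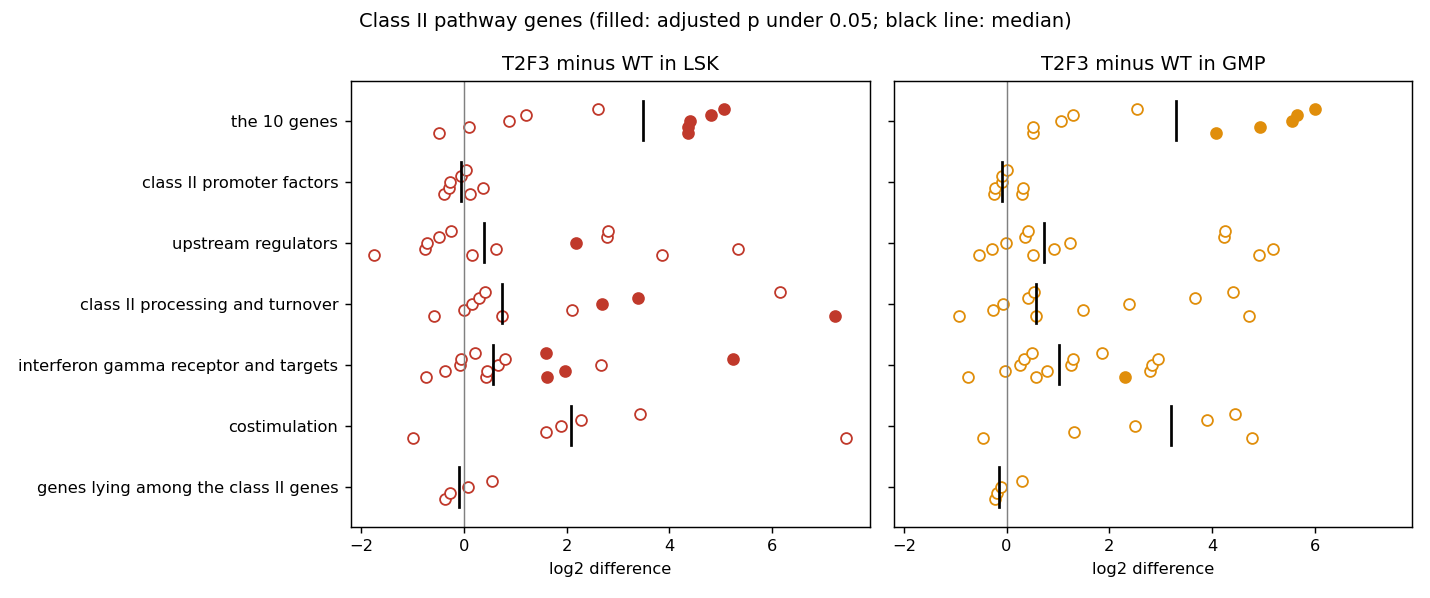
Log2 difference of T2F3 minus WT (x axis) in LSK (left) and GMP (right) for the 10 genes and 6 lists of pathway genes; each point is a gene, filled where the adjusted p was under 0.05, and black lines are list medians. Promoter factors lie near 0 (medians -0.05 and -0.09) while the 3 processing genes called in LSK and Gbp7 in both populations lie to the right.

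Several markers of dendritic cells that cross-present antigen were higher in T2F3, as the classical genes were. Of 9 tested markers of cross-presenting dendritic cells (CD8 alpha-type or CD103+ conventional dendritic cells), 7 rose in LSK and 3 in GMP, with median log2 differences of 6.41 and 4.44. Their summed level, of all 10 in the list, was 789.5 to 875 CPM (WT LSK), whereas it reached 2358, 3628 and 902 CPM in T2F3 LSK replicates 1, 2 and 3. In GMP it was 500.4 to 672 CPM in WT and 976, 1657 and 866 CPM in T2F3. Wdfy4, which was singled out after its values were seen, made up most of the WT sum (777 to 867 CPM in WT LSK) and did not pass (adjusted p = 0.109). T2F3 LSK replicate 3 was thus low for these markers as for class II, and T2F3 GMP replicate 2 was the highest GMP library for both. The part of such cells in the class II result was not tested.

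Itgae, which encodes CD103, was at 0 in all 3 WT LSK libraries and at 146, 185 and 14.3 CPM in T2F3 LSK, which is at least 587-fold higher when 0 is replaced by 3 counts in each library (adjusted p = 0.00361). In GMP Itgae rose 145-fold (adjusted p = 0.0206), a call lost without WT GMP replicate 1 (0.0714), WT GMP replicate 2 (0.108) or T2F3 GMP replicate 2 (0.0603). Naaa, a lysosomal amidase, was at 0, 2.07 and 5.03 CPM (WT LSK) versus 275.7, 296 and 27.0 CPM (T2F3 LSK), 85.3-fold, adjusted p = 0.00829. Xcr1, the chemokine receptor that defines these cells, passed in LSK (adjusted p = 0.00684) and not in GMP, where it was at 3.75, 0.738 and 0.175 CPM (WT) versus 9.12, 46.8 and 16.3 CPM (T2F3), adjusted p = 0.113.

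Tlr3, an endosomal receptor for double-stranded RNA, was at 0.0659, 0.28 and 0.961 CPM (WT LSK) versus 30.9, 83.9 and 5.02 CPM (T2F3 LSK), 93.1-fold, adjusted p = 0.0211. In GMP it was at 0, 0 and 0.407 CPM (WT) versus 3.17, 36.1 and 10.1 CPM (T2F3), 123-fold, adjusted p = 0.0446. That GMP fold depended on WT GMP replicate 3, without which the log2 difference was 11.34 in place of 6.95. The Tlr3 call in LSK was lost without WT LSK replicate 1 or 2 or T2F3 LSK replicate 1 or 2 (0.0581 to 0.0836). Its GMP call was lost without any 1 library except WT LSK replicate 1 and T2F3 LSK replicate 3 (0.0519 to 0.169). Gcsam was at 0 in all WT GMP libraries and at 6.08, 16.8 and 4.76 CPM in T2F3 GMP, at least 57.2-fold higher (adjusted p = 0.00238), and in LSK it rose 8.09-fold (adjusted p = 0.0285, and 0.0736 to 0.094 without any LSK library but T2F3 replicate 3). Cd8a, at 0 in WT GMP, did not reach 2 CPM in any library and was below the filter. The LSK count of 7 was 3 without WT LSK replicate 1 or 2 or T2F3 LSK replicate 1 or 2, and 4 without WT LSK replicate 3. The GMP count of 3 was 1 without WT GMP replicate 1 or 2 or T2F3 GMP replicate 2, and 5 without T2F3 LSK replicate 3. With limma-voom the counts were 0 in LSK and 1 in GMP, and a block for the library code gave 0 and 1.

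Of 9 markers shared by dendritic cells, 3 rose in LSK and 2 in GMP. Cst3, a cathepsin inhibitor abundant in dendritic cells, was at 57.0, 38.5 and 90.2 CPM (WT LSK) versus 681, 776 and 95.2 CPM (T2F3 LSK), 8.36-fold, adjusted p = 0.016. Plac8 rose 2.38-fold (adjusted p = 0.0285) and Kmo 8.58-fold (adjusted p = 0.0355). All 3 calls were lost without WT LSK replicate 1 or 2 or T2F3 LSK replicate 1 (0.0623 to 0.116), and those of Plac8 and Kmo also without T2F3 LSK replicate 2 (0.0546 and 0.112) and that of Kmo without WT LSK replicate 3 (0.0501). In GMP, Flt3, the receptor mutated in these mice, rose 4.12-fold (adjusted p = 0.0418, lost at 0.0573 to 0.183 without any 1 library except WT LSK replicate 1, T2F3 LSK replicate 3, WT GMP replicate 3 or T2F3 GMP replicate 3). In LSK Flt3 went the other way, at 432.6, 374 and 462.7 CPM (WT) versus 257, 329.6 and 187.6 CPM (T2F3). The groups did not overlap and there was no call (log2 difference -0.71 ± 0.41, adjusted p = 0.349). Fscn1 was at 0 in WT GMP and was at least 31.2-fold higher in T2F3 GMP (adjusted p = 0.00961). The GMP count was 5 without T2F3 LSK replicate 3. Fitting only the libraries compared left 0 calls in either population.

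Of 11 monocyte and macrophage markers tested, 4 rose in LSK and 0 passed in GMP. Adgre1, which encodes F4/80, was at 0, 0.84 and 0.37 CPM (WT LSK) versus 10.0, 14.8 and 6.17 CPM (T2F3 LSK), 24.6-fold, adjusted p = 0.00548. Ly6c2 rose 7.47-fold (adjusted p = 0.00978), and the chemokine receptor gene Ccr2 28.1-fold (adjusted p = 0.0125). Cd68 rose 2.82-fold (adjusted p = 0.044), a call lost without the same libraries as that of Irf8 (0.0515 to 0.144). Without WT LSK replicate 1 the GMP count was 1, Adgre1 (0.0401), and fitting only the libraries compared left 1 in LSK. Their summed list was at 163 to 180 CPM (WT LSK) versus 638.8, 655 and 213 CPM (T2F3 LSK). Sums for WT GMP, at 808 to 1397 CPM, were higher than any LSK library, with Ly6c2 alone at 838, 625 and 370 CPM. The list's part in the class II result was not tested.

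No B cell marker passed the test upwards. Of 8 tested, 0 rose in either population and 1 fell in LSK, Ebf1 (adjusted p = 0.0451), an early B cell factor at 13.9, 1.79 and 1.33 CPM (WT LSK) versus 0.076, 0.167 and 0 CPM (T2F3 LSK). The Ebf1 call was lost (0.0501 to 0.177) without any 1 LSK library or any 1 T2F3 GMP library. Pax5 and Cr2 were at 0 in all T2F3 LSK libraries, and Pax5, Blk and Cr2 in all T2F3 GMP libraries. Blk was at 0 in WT GMP too, and Cr2 did not reach 0.1 CPM in any library; both were below the filter. Ighm and Cd79b were detected in every library. Cd22, a surface receptor of B cells singled out after its values were seen, was at 0.132, 0.168 and 0.517 CPM (WT LSK) versus 2.36, 5.88 and 0.0823 CPM (T2F3 LSK), high in T2F3 replicates 1 and 2 as class II was, with a log2 difference of 3.34 ± 1.3 and no call (adjusted p = 0.153). The summed list was at 2499, 326 and 483 CPM (WT LSK) versus 287.6, 369.8 and 140.5 CPM (T2F3 LSK), nearly all of it Ighm (adjusted p = 0.084 in LSK). Without WT LSK replicate 1, Cd74 was higher in T2F3 LSK by 5.13 on the log2 scale (adjusted p = 0.0463). In that fit H2-Aa, H2-Ab1, H2-Eb1 and Ciita were higher by 3.93, 4.14, 5.07 and 4.05. These 4 genes did not pass there (adjusted p 0.0614 to 0.105). The part of B cells in the class II result was not tested.

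Of the plasmacytoid dendritic cell markers, 0 of 7 tested passed in either population, with median log2 differences of -2.11 in LSK and 0.84 in GMP. Sums were 30.5 to 50.5 CPM for WT LSK against 37.2 to 83.7 CPM for T2F3 LSK, and Klk1 and Ly6d were at 0 in WT GMP. Bst2, singled out after its values were seen, made up most of the T2F3 LSK sums, at 80.2, 57.9 and 36.5 CPM. Of the markers of other conventional dendritic cells, 0 of 6 tested passed, and Clec4a4 was at 0 in every LSK library and Cd209a in every WT LSK library. Their sums were 58.9 to 105 CPM (WT LSK) versus 40.7 to 59.4 CPM (T2F3 LSK). T cell and natural killer cell lists had no call (0 of 3 and 0 of 2 tested), with sums up to 62.8 and 2.28 CPM.

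Sorting genes also differed by genotype. Kit, which encodes the c-Kit used in both gates, was at 1003, 881.7 and 764 CPM (WT LSK) versus 242.6, 301 and 255.6 CPM (T2F3 LSK). It fell by 1.73 ± 0.21 on the log2 scale (adjusted p = 0.0015), and in GMP fell by 0.98 ± 0.21 (adjusted p = 0.0431, lost at 0.0506 to 0.206 without any 1 library except WT LSK replicate 1). Cd48 rose 3.07-fold in LSK (adjusted p = 0.00343), and Itgam, which encodes Mac-1, a marker depleted by the lineage antibodies, fell by 2.18 ± 0.38 (adjusted p = 0.0086). Fcgr2b rose 4.40-fold (adjusted p = 0.0227, and 0.0633 to 0.0867 without WT LSK replicate 2 or T2F3 LSK replicate 1 or 2). T2F3 LSK replicate 3 did not stand apart for Kit or Cd48, unlike for class II. With the library code as a block, Kit had an adjusted p of 0.0696 and Cd48 of 0.0896 in LSK.

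**Figure D5:**
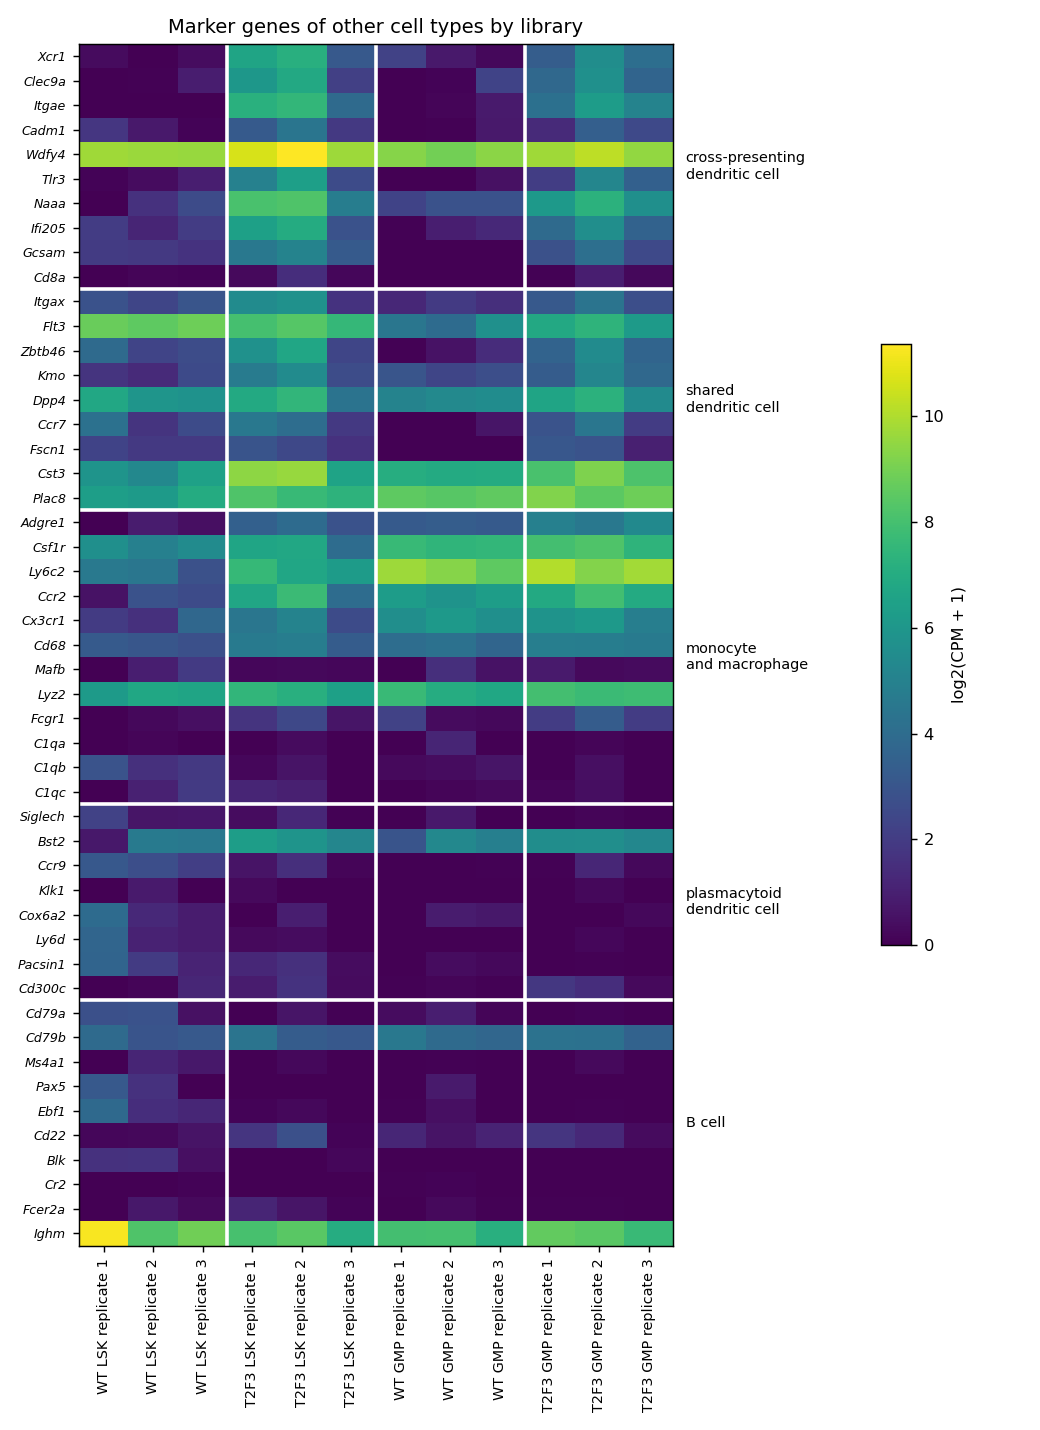
Level of marker genes, as log2(CPM + 1) by colour, in the 12 libraries (columns) for 5 lists of cell type markers (rows). Cross-presenting dendritic cell markers such as Itgae (0 in WT LSK) are bright in T2F3 LSK replicates 1 and 2 and in T2F3 GMP, and the B cell marker Pax5 is dark in all T2F3 libraries while Ighm and Cd79b are not.

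The genes whose pattern was most like the mean log2 CPM of H2-Aa, H2-Ab1, H2-Eb1 and Cd74 over the 12 libraries were Anpep (Pearson r = 0.981), Il10ra (0.977), Mycl (0.967), Itgb7 (0.96), Tlr3 (0.954), Gpr141b (0.949), Ifi205 (0.949), Fcgrt (0.947), Snx22 (0.946) and Trpv2 (0.944). They were ranked among 11073 genes with a mean of at least 5 CPM, of which 33 reached 0.9. Tlr3 and Ifi205 were also on the cross-presenting dendritic cell list. Among the members outside that mean, r was 0.975 for Ciita, 0.924 for H2-DMb2, 0.889 for H2-DMa, 0.717 for H2-DMb1, 0.57 for H2-Oa and 0.514 for H2-Ob. The 12 libraries share genotype and population, so r is a measure of likeness and not of association within a group.

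Anpep, which encodes aminopeptidase N (CD13), was at 1.39, 2.46 and 5.10 CPM (WT LSK) versus 46.4, 82.3 and 6.21 CPM (T2F3 LSK). Il10ra, the ligand-binding chain of the interleukin-10 receptor, was at 20.2, 21.8 and 22.03 CPM (WT LSK) versus 66.0, 103 and 33.1 CPM (T2F3 LSK). Itgb7, an integrin beta chain, was at 43.4, 41.7 and 61.2 CPM (WT GMP) versus 220.8, 260.2 and 184 CPM (T2F3 GMP). T2F3 LSK replicate 3 was the lowest T2F3 library for Anpep and Il10ra, as it was for Cd74, and yet lay above all WT libraries for both.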

How the data were processed

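RNA was measured in 12 libraries. Per the labels' protocols, marrow was depleted of lineage-positive cells with antibodies that included Mac-1, Gr-1 and B220, sorted, and made into ribosome-depleted Ion Torrent libraries, which keep unspliced RNA. The submitters' processing notes name cutadapt 1.2rc2, BWA 0.5.9, TopHat, TopHat2, Picard and HTSeq, and the mm9 build. Settings and strand: not given in the sources used here. Reads of overlapping or similar genes can therefore not be told apart. The authors deposited raw gene counts without normalization.

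Counts were filtered (filterByExpr, minimum count 10), scaled by TMM and tested with edgeR 4.0.16 (quasi-likelihood F-test, R 4.3.3) over all 12 libraries with 1 mean per group (8 residual degrees of freedom), and Benjamini-Hochberg adjusted over 16042 entries, with a threshold of 0.05. The fit was tested on simulated data. Counting error only is covered by floors of 3 counts. Names of 19939 identifiers were found in GENCODE vM21, whose merged exon lengths gave CPM per kb, and RefSeq windows gave promoter sequences. Alternatives were RLE and total-count scaling, other filters, DESeq2 1.42.0, limma-voom (limma 3.58.1), blocks and left-out libraries. Replicates of a group all differed by more than counting error (chi-square divided by its degrees of freedom, 78.3 to 416).

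Members, gene lists and marker lists were chosen with earlier results of these data known. Named genes were all members, up to 5 called genes per pathway list (with Rfx5, Spi1, Irf8 and Irf4 in any case), up to 4 markers per list by smallest p in LSK, markers at 0 in a whole group, and the 10 genes most like the classical genes. A marker gene counted in the lists is not reported here by name. Replicate numbers in the titles recur in LSK and GMP of each genotype without a stated meaning. Deviations from group means of same-numbered libraries correlated at 0.12 to 0.14 in WT and 0.29 to 0.43 in T2F3. Same-numbered libraries were therefore taken as pairs between LSK and GMP in the ratios and in an alternative fit. The main fit was unpaired.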

Additional observations from a re-analysis of the deposited data

How the results depend on the processing

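The 5 genes called by genotype kept their direction in LSK and in GMP under all 24 alternatives of each comparison, and their calls did not all hold. In LSK the number called was 5 and was 2 with limma-voom, 0 with the library code as a block, 1 without both WT replicate 1 libraries, 0 without both T2F3 replicate 1 libraries, 8 without both T2F3 replicate 3 libraries, and 1 to 8 without single libraries. In GMP it was 5, and 2 with limma-voom, 3 with the replicate number as a block, 0 with the library code as a block, 0 without both WT replicate 1 libraries, 1 without both T2F3 replicate 1 libraries, and 0 to 5 without single libraries. For GMP against LSK in WT it was 1, and 3 with DESeq2, with the replicate block by title number within genotype and with only the libraries compared, 4 without both T2F3 replicate 3 libraries and 1 to 4 without single libraries. Where 0 passed between genotypes, 5 to 7 genes had an unadjusted p under 0.05. Between the genotypes the replicate numbers are only numbers: same-number correlations were 0.015, 0.09 and -0.012 in LSK and 0.19, 0.066 and 0.014 in GMP. Signs turned for small differences, on the log2 scale. For H2-Oa in LSK leaving out single libraries gave -0.20 to 0.39. For the difference between the genotype effects, the library code as a block gave 0.76 for H2-Aa, 0.30 for Cd74, 0.05 for H2-DMa, 0.12 for H2-Oa and 0.34 for Ciita, and limma-voom gave -1.14 for H2-Ab1, -0.12 for H2-DMb1 and -0.44 for H2-DMb2. There the block by title number within genotype gave -0.21 for H2-Ab1, total counts gave -0.10 for H2-DMb2, leaving out both WT replicate 1 libraries gave -0.05 for H2-Ab1, -0.11 for H2-DMb2 and 1.34 for the second CIITA entry, both T2F3 replicate 1 libraries -0.20 for H2-Ab1 and -0.30 for H2-DMb2, and both T2F3 replicate 3 libraries 0.04 for H2-DMa. Single libraries left out gave -1.03 to 0.65 for H2-Aa, -0.10 to 0.92 for H2-Ab1, -0.97 to 0.28 for Cd74, -0.44 to 0.19 for H2-DMa, -0.33 to 0.68 for H2-DMb2 and -7.03 to 0.89 for the second CIITA entry. For GMP against LSK in WT, H2-DMb1 (0.01) was -0.05 with RLE scaling and DESeq2, -0.12 with total counts, -0.02 with the filter of 5 CPM, -0.14 with limma-voom, -0.06 with the block by replicate number, -0.01 with the block by title number within genotype, -0.20 without both WT replicate 1 libraries, -0.01 without both T2F3 replicate 1 libraries and -0.27 to 0.19 without single libraries, and H2-DMb2 was -0.88 to 0.14. For GMP against LSK in T2F3, limma-voom gave 0.07 for H2-DMb2. For Rfx5 in GMP total counts gave 0.10, leaving out both T2F3 replicate 1 libraries 0.11 and single libraries -0.20 to 0.10. The cause was not tested. Total counts moved the median of all genes in GMP from 0.02 to 0.17 and the LSK split of all calls from 443 higher and 391 lower to 227 and 107. Calls over all genes ranged from 18 to 1919 in LSK (834), 39 to 832 in GMP (183), 0 to 190 for the difference (4), 974 to 3225 for GMP against LSK in WT (2100) and 0 to 561 in T2F3 (156). The alternatives for pathway and marker genes were added after the data were seen. With 3 libraries per group, a gene as uneven as Cd74 in T2F3 LSK limits precision more than counting depth does.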

Other observations

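The second CIITA entry, under an identifier with no GENCODE vM21 name, held 114, 1 and 1 counts in WT LSK, 103, 291 and 24 counts in T2F3 LSK, 0, 0 and 2 counts in WT GMP and 23, 121 and 21 counts in T2F3 GMP. It passed no test (adjusted p = 0.625 in LSK and 0.202 in GMP). Its count in WT LSK replicate 1 was above the 41 counts of the main Ciita entry in the same library.

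H2-Eb2, a further class II beta gene, held 0, 1.12 and 1.7 CPM (WT LSK) versus 3.42, 3.80 and 0.288 CPM (T2F3 LSK), and passed neither genotype test (adjusted p = 0.578 in LSK and 0.35 in GMP).

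Lgmn, which encodes a lysosomal endopeptidase that cuts the invariant chain, was singled out after its values were seen. It was at 0, 0.694 and 2.27 CPM (WT GMP) versus 12.0, 18.3 and 7.23 CPM (T2F3 GMP), with no overlap and no call (adjusted p = 0.142), and at 10.4, 3.75 and 3.55 CPM in WT LSK against 7.52, 12.3 and 1.81 CPM in T2F3 LSK (adjusted p = 0.908).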
